A study of Rattus norvegicus with 180 samples.

Results

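The microRNAs (miRNAs) of the cecum, the colon and the rectum, the 3 consecutive segments of the large intestine, were compared with each other in the same animals. The samples were taken by their labels, as the arrays of these organs from the perfused rats 4, 5 and 6, which gave 9 of the 180 samples of the series, with 3 samples per organ and 1 per rat. The animals were male Sprague-Dawley rats of 10 weeks, a laboratory strain, and their blood was washed out with saline under ether before sampling. None of the groups compared here was treated otherwise, and the whole series holds 55 organs of these animals. It also holds liver, kidney, lung and heart arrays of other rats that were not perfused, and these are among the 180 arrays used for scaling. According to the methods, the intestinal samples were mucosal epithelium scraped from the wall, so that they are a mixture rather than a pure cell type, and how deep each scrape reached is not recorded in the sources used here. Total RNA was hybridized to 1-color arrays with probes for 717 rat miRNAs, and those seen on each of the 3 arrays in 1 organ or more, 172 in number, were tested. Of the rest, 58 were detected on some arrays and 487 on none.

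A miRNA is a short RNA that guides a silencing complex to messenger RNAs, mainly through its seed, the bases 2 to 8 from its 5′ end. Many miRNAs are made almost only in some cell types, so that a tissue's profile carries the signatures of its epithelium, muscle, connective tissue, vessels and leukocytes. In the intestine miR-192, miR-194 and miR-215 are known from absorptive epithelium, the miR-200 family from epithelia in general, miR-143 and miR-145 from smooth muscle and fibroblasts, miR-199a and miR-214 from mesenchyme, miR-126 from endothelium, and miR-142, miR-150 and miR-223 from leukocytes. The miR-10 and miR-196 genes lie within the HOX gene clusters, which set position along the body axis.

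The sequences that follow are those on which the comparisons turn, as listed by RefSeq for the rat build GRCr8, 5′ to 3′ with the seed in capitals. Names without an arm on the array are shown as the arm they usually stand for. The first set was chosen because it marks gut epithelium, and miR-192 and miR-215 share a seed. They differ in C1A, A12U and C20A, counted from the 5′ end of miR-192-5p. Cross-hybridization between the probes of these 2 miRNAs is possible and was not tested.
miR-215: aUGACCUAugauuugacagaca
miR-192-5p: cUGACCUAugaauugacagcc
miR-194-5p: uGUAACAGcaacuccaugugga
The second set was chosen from the miRNAs called lower in the rectum than in both other organs, for its known cell types and shared seeds. Within it miR-195 and miR-497 share a seed, as do miR-125a and miR-125b, and miR-146a and miR-146b.
miR-143-3p: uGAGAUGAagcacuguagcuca
miR-145-5p: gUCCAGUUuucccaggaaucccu
miR-199a-3p: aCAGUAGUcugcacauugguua
miR-214-3p: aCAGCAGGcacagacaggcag
miR-125b-5p: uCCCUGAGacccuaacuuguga
miR-125a-5p: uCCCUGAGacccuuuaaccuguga
miR-195-5p: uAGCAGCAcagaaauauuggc
miR-497-5p: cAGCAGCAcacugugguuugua
miR-223-3p: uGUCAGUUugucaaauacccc
miR-142-3p: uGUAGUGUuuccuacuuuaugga
miR-146a-5p: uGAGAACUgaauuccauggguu
miR-146b-5p: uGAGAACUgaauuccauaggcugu
The third set comes from the HOX clusters. The mature miR-10b listed by RefSeq starts 2 bases inside miR-10a and differs from it at 1 base, U12A counted on miR-10a-5p. The 3 forms of miR-196 differ at a single position, A12C in miR-196b and A12G in miR-196c counted on miR-196a, so that cross-hybridization between their probes is possible and was not tested.
miR-10a-5p: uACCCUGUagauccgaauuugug
miR-10b-5p: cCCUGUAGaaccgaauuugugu
miR-196a-5p: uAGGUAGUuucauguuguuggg
miR-196b-5p: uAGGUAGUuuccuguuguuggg
miR-196c-5p: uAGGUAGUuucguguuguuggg
The last set was called higher in the colon than in the cecum.
miR-139-5p: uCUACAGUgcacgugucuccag
miR-375-3p: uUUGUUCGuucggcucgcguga
miR-221-3p: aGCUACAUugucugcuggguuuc

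All signal intensities given here are scaled to the 75th percentile over 37 miRNAs that were detected on all 180 arrays, and values under 10.8 were set to that floor. Between 160 and 191 miRNAs were detected per array (160, 173 and 179 in the 3 rectum arrays), and no spot was saturated. The 75th percentile before scaling was 1353 to 1866 on the cecum arrays, 1466 to 1852 on the colon arrays and 2829 to 3052 on the rectum arrays, so the rectum arrays were brighter on this measure, and the part of this in the differences was not tested. The cecum array of rat 4 stood apart from the other cecum arrays. Over the tested miRNAs the cecum arrays correlated with each other at r = 0.912 to 0.991, against 0.971 to 0.976 in the colon and 0.979 to 0.990 in the rectum, and the 2 lower values in the cecum were those of rat 4. Some differences from the cecum are therefore also given without that array, and the others were not all stable without it. The defining markers of intestinal epithelium were present on all 9 arrays, since miR-192, miR-194 and miR-215 were detected on each of them, whereas the liver-specific miR-122 was detected on none.

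The cecum and the colon had closely similar profiles, and the rectum differed from both. Of the 172 miRNAs tested by limma with rat as a block, 4 differed between colon and cecum (adjusted p under 0.05), or 2.33%, with 3 higher (1.74%) and 1 lower (0.581%) in the colon. Between rectum and cecum 101 differed (58.7%), of which 25 were higher (14.5%) and 76 lower (44.2%) in the rectum. Between rectum and colon 75 differed (43.6%), of which 8 were higher (4.65%) and 67 lower (39%) in the rectum. Over all 3 organs 97 miRNAs differed by limma's F test (56.4%), and 62 were called in none of the 3 pairs. The comparisons with the rectum share its 3 arrays: 61 miRNAs were lower in the rectum than in both other organs and 5 were higher than in both.

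The balance of higher and lower calls in the rectum depended on how the arrays were scaled, so a direction is given only where it held or with its exceptions. The median log2 difference over the tested miRNAs was -0.40 for rectum minus cecum and -0.35 for rectum minus colon with the scaling used here, and became 0.67 and 0.55 with the 75th percentile over all miRNAs. The split for rectum minus cecum was 25 higher and 76 lower, against 86 and 38 with the percentile over all miRNAs, 55 and 48 with the percentile taken from the 138 miRNAs seen on all 9 arrays, 64 and 46 after quantile normalization, 87 and 38 in the authors' normalized table and 62 and 38 without scaling. For rectum minus colon it was 8 and 67, against 81 and 42, 46 and 48, 60 and 47, 82 and 42, and 54 and 41 in the same order. Under all 6 of these scalings 23 miRNAs were called higher and 37 lower in the rectum than in the cecum, and 6 higher and 41 lower in the rectum than in the colon. The directions given below for the rectum hold under all 6 scalings unless it is said otherwise, and the sizes are those of the main scaling.

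**Figure D1:**
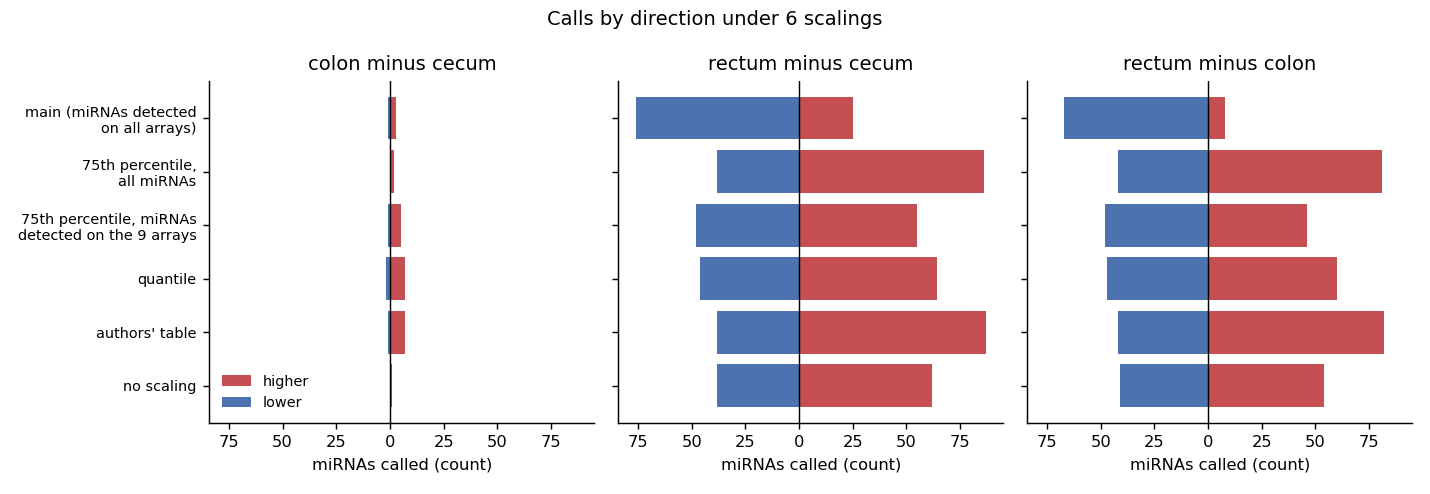
Number of miRNAs called higher (right, red) or lower (left, blue) in each pair of organs by limma (adjusted p under 0.05) under 6 ways of scaling the arrays, among 172 tested miRNAs. For rectum minus cecum the bars run from 25 higher and 76 lower to 87 higher and 38 lower.

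**Figure D2:**
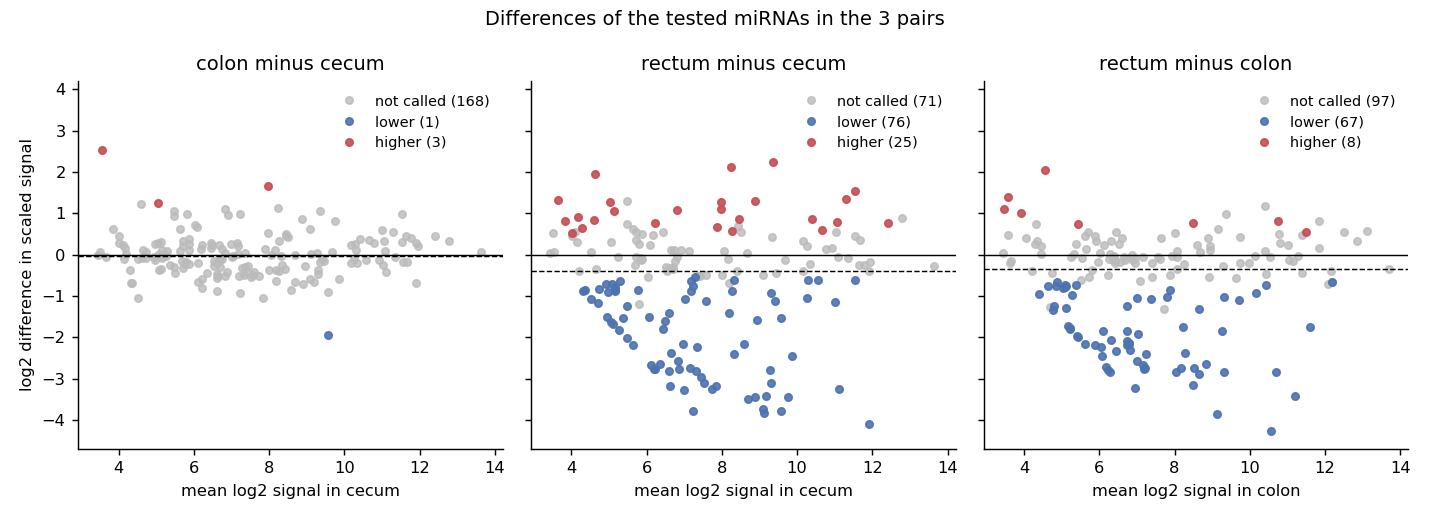
Log2 difference in scaled signal (vertical axis) against the mean log2 signal in the second organ of each pair (horizontal axis) for 172 miRNAs, with calls in color and the median as a dashed line. Colon minus cecum lies along 0 with 4 calls, while in both pairs with the rectum a set of miRNAs reaches a log2 difference of about -4.

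The similarity of whole profiles followed the same order. Over the 172 tested miRNAs, which are not independent of each other, the mean log2 profile of the cecum correlated with that of the colon at r = 0.973, above every other of the 55 organs. The rectum was nearest to the colon (r = 0.894) and then to the ileum (r = 0.890), and its correlation with the cecum was 0.849. Single arrays of colon and cecum correlated at 0.879 to 0.967, of rectum and colon at 0.851 to 0.921, and of rectum and cecum at 0.733 to 0.885.

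miR-215, an epithelial miRNA, was higher in the rectum than in the cecum. Its signal intensity in rats 4, 5 and 6 was 149, 479 and 389 in the cecum, 896, 834 and 389 in the colon and 1763, 1173 and 1079 in the rectum. The rectum lay above both other organs in every rat and did not overlap with them, whereas cecum and colon met at 389 in rat 6. Of all tested miRNAs 64% did not overlap between rectum and cecum and 59.9% between rectum and colon. The means of miR-215 were 339 ± 171 (SD, n = 3) in the cecum, 706 ± 276 in the colon and 1338 ± 371 in the rectum. An exact permutation of organs within rats gave p = 0.0278 (two-sided, 216 arrangements), which is the smallest p this design allows. The log2 difference by limma was 2.11 (SE 0.46, adjusted p = 0.00442) for rectum minus cecum, 1.13 (adjusted p = 0.277) for colon minus cecum and 0.98 (adjusted p = 0.123) for rectum minus colon, so only the outer pair was called. Without the cecum array of rat 4 the rectum minus cecum difference was 1.38 (adjusted p = 0.00309) and the colon minus cecum difference was 0.40 (adjusted p = 0.443). The second entry of this miRNA on the array, from miRBase release 15.0, gave 738 ± 373, 1447 ± 552 and 3150.5 ± 786 in the same order, with a rectum minus cecum difference of 2.24. Without the cecum array of rat 4 that difference was 1.52. With all arrays the exact permutation p of the second entry was 0.0556. Both entries were far higher in the small intestine, where the first had mean signal intensities of 30074 in the duodenum, 20991 in the jejunum and 9279 in the ileum, and the 3 large intestinal segments ranked 6, 5 and 4 of 55 organs, the rectum nearest to the small intestine.

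The partners of miR-215 moved less. miR-194, whose gene copies neighbor miR-215 on 1 chromosome and miR-192 on another, was 1226, 3337 and 3900.4 in the cecum, 3865, 4619 and 2761 in the colon and 6838, 5705 and 6758 in the rectum, and was higher in the rectum than in the cecum (log2 difference 1.35, SE 0.39, adjusted p = 0.0169). Without the cecum array of rat 4 the difference was 0.79 (adjusted p = 0.0377). miR-192, one of the 5 miRNAs with the highest mean signal over the 9 arrays, was 3406, 9878 and 10467 in the cecum, 8794, 11074 and 7250.0 in the colon and 13829.6, 11497 and 14300.2 in the rectum. Its rectum values lay above all others, but the difference from the cecum did not pass the test (0.90, SE 0.37, adjusted p = 0.066), and without the cecum array of rat 4 it was 0.36 (adjusted p = 0.243). In rat 4 all 3 miRNAs were lowest in the cecum by a wide margin. The other arm, miR-192*, had means of 98.2, 96.6 and 127.5 in cecum, colon and rectum, and was not called for rectum minus cecum (0.55, adjusted p = 0.227). By rat that difference was 1.69, -0.000905 and -0.03 in rats 4, 5 and 6, and it was -0.03 without the cecum array of rat 4. miR-194* was detected on 1 rectum array only and was not tested. Of the 5 tested members of this epithelial list, 3 were higher and 0 lower in the rectum than in the cecum, against 14.5% higher of all tested miRNAs. Of the 3 calls 2 are the entries of miR-215. The list had a median difference of 1.35, which is that of miR-194, against -0.40 over all tested miRNAs, and none was called in the other pairs.

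The miR-200 family, which keeps epithelial cells from taking on a mesenchymal state, was likewise higher in the rectum than in the cecum in part. Of its 8 tested members, 6 were higher than in the cecum and 0 lower, against 14.5% higher of all tested miRNAs. The median difference was 0.78 against -0.40, but only 4 of the calls held under all 6 scalings. Of these 4, miR-200a* was detected on all 3 arrays in the rectum alone. It was thus tested only through the organ where it is high. It turned to -0.49 (adjusted p = 0.0125) under normexp background correction. That alternative was run on median spot signals, so background correction and spot signal changed together. No call was made for colon minus cecum or rectum minus colon. miR-200a was 1221, 3929.9 and 5408 in the cecum, 5564, 6051 and 5945 in the colon and 7556, 8420.2 and 9774 in the rectum, where it ranked 2 of 55 organs. Its difference between rectum and cecum was 1.53 (SE 0.37, adjusted p = 0.00802), and 0.95 (adjusted p = 0.00514) without the cecum array of rat 4, and it lost its call under another scaling, as did miR-200b. miR-200b differed by 0.77 (adjusted p = 0.046), miR-429 by 0.79 (adjusted p = 0.0289) and miR-141 by 0.87 (adjusted p = 0.0201). These differences leaned on the cecum array of rat 4: without it the differences were 0.38 for miR-200b, 0.47 for miR-429 and 0.65 for miR-141, with adjusted p of 0.133, 0.0728 and 0.0623. miR-200c was 60.1, 133 and 179 in the cecum, 235, 248 and 248 in the colon and 260.2, 209 and 243 in the rectum. The cecum alone was low (rectum minus cecum 1.07, adjusted p = 0.0209, and 0.59 without the cecum array of rat 4, adjusted p = 0.036). The second entry of miR-200c on the array did not pass the test (0.46, adjusted p = 0.152). Its rectum minus cecum difference was 1.09, 0.03 and 0.26 in rats 4, 5 and 6.

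Other miRNAs were also higher in the rectum. miR-31, which is abundant in the epithelium of the small intestine and in squamous epithelium, was 10.8, 23.4 and 59.8 in the cecum, 11.8, 52.6 and 20.4 in the colon and 88.2, 87.5 and 115 in the rectum. The rectum lay above both other organs in every rat, by 1.96 (SE 0.50, adjusted p = 0.00988) over the cecum (1.64 without the cecum array of rat 4, adjusted p = 0.045) and 2.04 (adjusted p = 0.00864) over the colon, and miR-31 was much higher still in the duodenum, at a mean of 1069. Its partner strand miR-31* was 10.8 to 16.9 in cecum and colon and 28.4, 24.8 and 44.5 in the rectum. Its sign turned under normexp background correction of median spot signals. The other squamous markers did not pass the test in any pair: miR-205 had mean signal intensities of 61.6, 93.0 and 112 in cecum, colon and rectum, and miR-203 of 661, 591 and 876. The rectum minus cecum difference of miR-205 was 3.47, 0.46 and -0.01 in rats 4, 5 and 6. Its second entry on the array, from release 15.0, had means of 155, 170 and 148, with a rectum minus cecum difference of 0.07 (adjusted p = 0.849). Without the cecum array of rat 4 that of the second entry was -0.48 (adjusted p = 0.045).

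The miR-183 cluster, known from sensory cells, had 3 tested members, of which miR-96 and miR-183 were detected in all 3 organs and higher in the rectum than in the cecum. miR-96 was 140.2, 327 and 342 in the cecum, 317, 394 and 367 in the colon and 526, 582 and 741 in the rectum, which was above the cecum by 1.28 (SE 0.26, adjusted p = 0.00311) and above the colon by 0.77 (adjusted p = 0.0401). Without the cecum array of rat 4 the miR-96 difference from the cecum was 0.96 (adjusted p = 0.0045). miR-183 differed from the cecum by 0.78 and miR-182 by at least 1.83-fold. However, miR-182 was detected on no cecum or colon array, so that it was tested only through the organ where it is high. Its fitted difference, 0.90 with all arrays, was 0.54 without the cecum array of rat 4. It changed sign to -0.31 under normexp on median spot signals. Without the cecum array of rat 4 the difference for miR-183 was 0.45 (adjusted p = 0.080). miR-29c, a miRNA that targets collagen messages, was 352, 504 and 594 in the cecum, 839, 834 and 896 in the colon and 1060.2, 1115 and 1318 in the rectum, and the 3 organs did not overlap. Of all tested miRNAs 64% did not overlap between rectum and cecum, 59.9% between rectum and colon and 20.3% between colon and cecum. The difference of miR-29c was 1.30 (adjusted p = 0.000727) for rectum minus cecum and 0.86 (adjusted p = 0.0575) for colon minus cecum. Of the miR-29 family 3 of 4 tested members were higher in the rectum than in the cecum, against 14.5% of all tested miRNAs. Of the miR-30 family 2 of 7 were, among them miR-30e (0.85). However, miR-29c*, 1 of the former 3, turned to -0.41 (adjusted p = 0.0268) under normexp on median spot signals. Above the colon, beside miR-31, miR-31* and miR-96, the rectum also had more miR-27a (0.81, adjusted p = 0.0148) and miR-24-2* (at least 1.94-fold). Both are from 1 gene cluster. The rectum also had more miR-33 (0.74), which lies in a sterol regulator gene. However, miR-24-2* and miR-33 turned sign under normexp on median spot signals. Detected on no cecum or colon array, miR-24-2* was tested only through the rectum. The remaining calls above the colon, miR-23a (0.53) and the red blood cell miR-451 (at least 1.84-fold), were not made under every scaling. Of these, miR-451 was detected on no colon array and on 2 of 3 rectum arrays. Its difference from the colon turned to -0.36 under normexp on median spot signals.

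**Figure D3:**
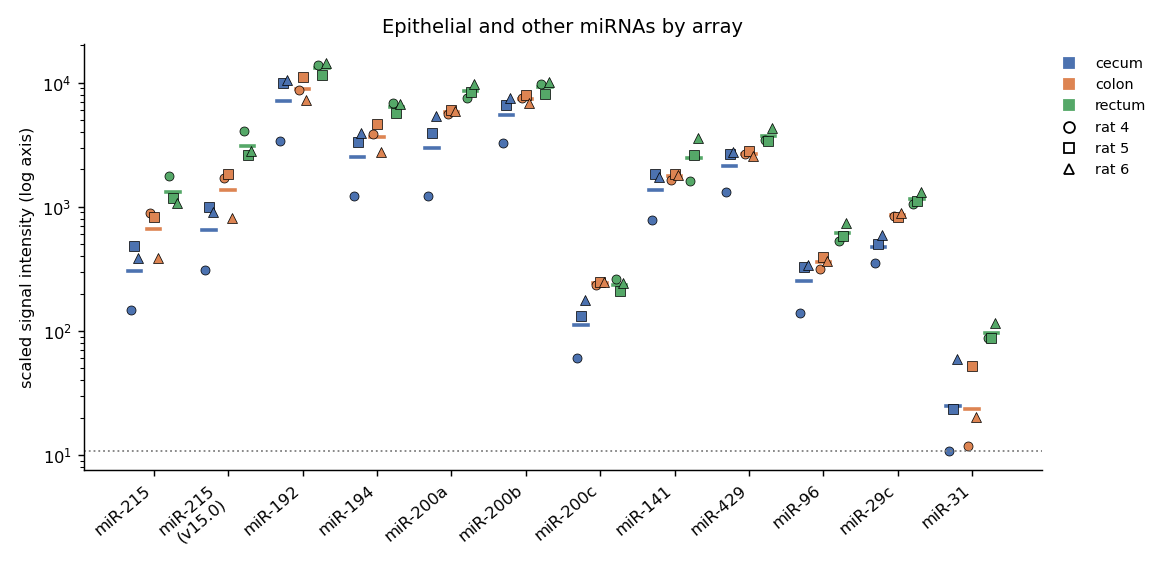
Scaled signal intensity (log axis) of epithelial and other miRNAs on each array, colored by organ with 1 symbol per rat; bars are geometric means of 3 rats and the dotted line is the floor. For miR-215 the rectum arrays sit at 1079 to 1763, above all cecum and colon arrays (of all tested miRNAs 64% and 59.9% did not overlap with cecum and colon). The cecum of rat 4 is the lowest point for most miRNAs.

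The largest differences in both pairs with the rectum were in miRNAs that were low there, many of them from the lists for muscle, mesenchyme, endothelium and leukocytes. In a bulk sample fewer cells of a type and less RNA per cell cannot be told apart. miR-143, of smooth muscle and fibroblasts, was 4359, 3792 and 3386 in the cecum, 2457, 1648 and 3314 in the colon and 165.3, 181 and 363 in the rectum. The groups with and without the rectum did not overlap, and the rectum was lower by a log2 difference of -4.11 (SE 0.30, adjusted p = 1.01e-05) against the cecum and -3.42 (adjusted p = 2.96e-05) against the colon. Of all tested miRNAs 64% did not overlap between rectum and cecum and 59.9% between rectum and colon. Among the 55 organs the rectum ranked 54 for miR-143, whereas the cecum ranked 11. miR-145, from the same primary transcript, was 84.9, 63.9 and 73.1 in the cecum and 57.9, 29.6 and 68.3 in the colon and was detected on no rectum array, so that it was at least 6.78-fold and at least 4.51-fold lower there. The bounds set the mean of the higher organ against a value for each array of the lower organ. That value is the higher of the floored signal of the miRNA and the lowest signal detected. miR-133b, a striated muscle miRNA, was 90.2, 86.5 and 68.3 in the cecum and 18.1, 10.8 and 11.2 in the rectum, where it was detected on 1 array of 3. It was called lower there, having been tested only through the organs where it is high, but miR-133a was detected on no array of the 3 organs and miR-1 on 1 rectum array only, at the floor. Of the 13 striated muscle miRNAs on the array 1 could be tested.

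The mesenchymal miRNAs were lower in the rectum than in both organs in 3 of 3 tested members, against 44.2% and 39% of all tested miRNAs, although miR-199a-5p was detected on 2 of 3 rectum arrays and so was tested only through the other organs. miR-199a-3p was 637, 644 and 583 in the cecum, 735, 427 and 805 in the colon and 79.4, 94.9 and 93.0 in the rectum (differences -2.80 and -2.83, adjusted p = 2.2e-05 and 3.56e-05). miR-199a-5p from the other arm of the hairpin gave nearly the same differences, -2.76 and -2.78. miR-214, whose gene neighbors that of miR-199a, was 203, 113 and 91.7 in the cecum, 152, 88.1 and 139.5 in the colon and 16.1, 13.2 and 10.8 in the rectum (-3.28 and -3.22). miR-125b-5p, common in stromal and neural cells, was 768, 488 and 455 in the cecum, 572, 439.9 and 715 in the colon and 37.2, 34.9 and 44.9 in the rectum, with differences of -3.84 (SE 0.25, adjusted p = 1.01e-05) and -3.86 (adjusted p = 9.81e-06). The 5 tested members of the miR-99, miR-100 and miR-125 families were called lower in the rectum than in each of the other organs, but miR-99a, miR-99b and miR-100 were tested only through those organs, since they were detected on 2, 2 and 0 of 3 rectum arrays. The 5 had median differences of -1.83 and -2.08 against -0.40 and -0.35 over all tested miRNAs. The median of -1.83 is the value of miR-100. In the rectum the means of miR-99a, miR-99b and miR-100 are at the floor, which limits the size of these medians. miR-100 was at least 3.55-fold lower there than in the cecum.

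The endothelial miR-126 was 675, 553 and 529 in the cecum, 414, 227 and 527 in the colon and 62.5, 53.5 and 48.8 in the rectum, a difference of -3.41 (SE 0.28, adjusted p = 1.01e-05) from the cecum and -2.75 (adjusted p = 5.26e-05) from the colon. miR-195 and miR-497, neighbors on chromosome 10 with a shared seed, ran in parallel. miR-195 was 628, 484 and 349 in the cecum, 320.5, 207 and 372 in the colon and 42.8, 41.8 and 45.0 in the rectum (-3.45 and -2.75). miR-497 was 538, 437 and 302 in the cecum, 290.3, 178 and 346 in the colon and 32.2, 37.5 and 40.7 in the rectum (-3.50 and -2.84). In miR-126, miR-195 and miR-497 the highest rectum array lay below the lowest array of the other organs, and of all tested miRNAs 64% did not overlap between rectum and cecum and 59.9% between rectum and colon.

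All 7 tested leukocyte miRNAs were lower in the rectum than in the cecum and than in the colon, against 44.2% and 39% of all tested miRNAs, with median differences of -3.17 and -2.68 against -0.40 and -0.35. miR-223, of neutrophils and other myeloid cells, was 1226, 651 and 542 in the cecum, 585, 241 and 462 in the colon and 58.4, 55.8 and 49.6 in the rectum (-3.80, SE 0.30, adjusted p = 1.01e-05, and -2.89). miR-142-3p, made in all blood cell lineages, was 3828, 1536 and 1812 in the cecum, 3369.9, 1265 and 1063 in the colon and 342, 311 and 117 in the rectum (-3.25 and -2.84). It was highest in rat 4 in each organ. miR-146a, a brake on innate immune signaling, was 772, 477 and 434 in the cecum, 609.5, 213 and 362 in the colon and 60.1, 38.9 and 28.5 in the rectum (-3.74 and -3.15). miR-150, of mature lymphocytes, was detected on 2 of 3 rectum arrays and so tested only through the other organs, and was more variable, at 184, 83.1 and 129.9, then 332, 187 and 54.4, and then 64.6, 31.9 and 10.8, and its difference of -2.16 from the cecum was not called under all 6 scalings, in contrast to that of -2.41 from the colon. The summed signal intensity of the detected leukocyte miRNAs was 3152 to 6651 in the cecum, 2131 to 5423 in the colon and 238 to 591 in the rectum, with the highest cecum and colon values in rat 4.

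**Figure D4:**
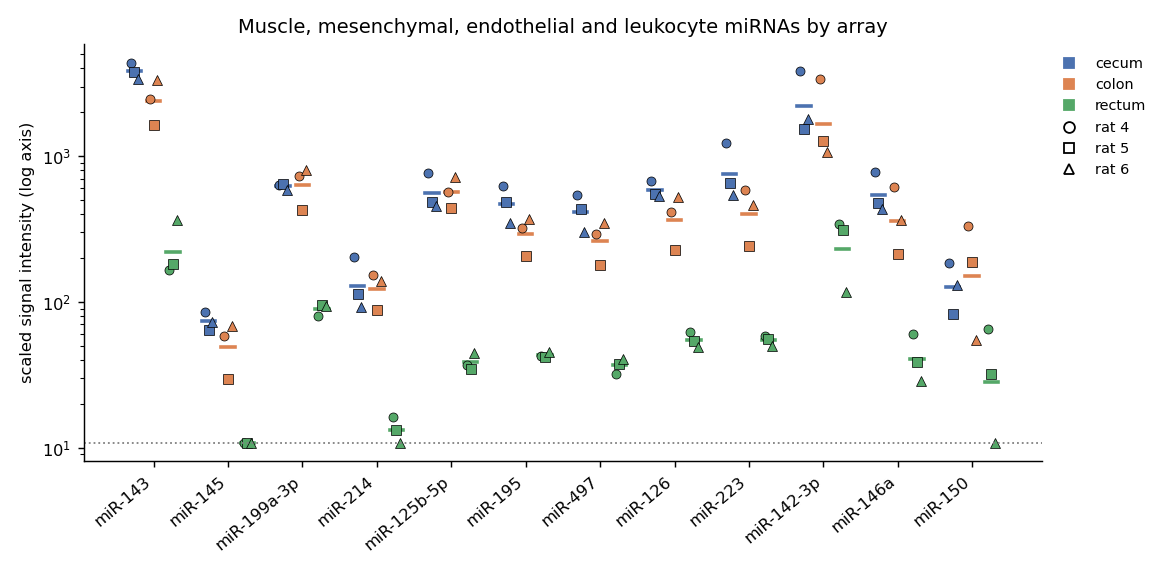
Scaled signal intensity (log axis) of muscle, mesenchymal, endothelial and leukocyte miRNAs on each array, with symbols as in the plot of epithelial miRNAs. Rectum arrays lie below all cecum and colon arrays for every miRNA shown except miR-150 (of all tested miRNAs 64% and 59.9% did not overlap with cecum and colon), and for miR-145 they are at the floor of 10.8.

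Other named miRNAs that were lower in the rectum than in both organs under all 6 scalings were let-7e (-2.41 and -2.37), miR-34a, a target of p53 (-2.59 and -2.07), miR-338 of myelin-forming cells, which was detected on no rectum array (at least 4.09-fold and 3.33-fold lower), and miR-327 (-3.78 and -2.84). miR-327 was 504, 76.1 and 88.8 in the cecum. Its rectum mean of 10.95 lay near the floor, which limits the size of its differences from both organs. Without the cecum array of rat 4 its difference from the cecum was -3.05. The miR-494 entry of release 15.0 was 2974, 169 and 112 in the cecum, and its difference of -2.17 became -1.25 without that array (adjusted p = 0.0728). Against the rectum's lower values in stromal lists, the miR-17-92 clusters, which accompany proliferation, held 6 lower calls of 10 tested against the cecum and 1 of 10 against the colon, where 44.2% and 39% of all tested miRNAs were lower, and none under all 6 scalings. For let-7, 3 of 8 tested members were lower than in the cecum and 4 of 8 than in the colon, against 44.2% and 39% of all tested miRNAs, and let-7e alone held under all 6 scalings in each pair. Across the 55 organs of the series, the rectum had the lowest mean of all for 14 of the 172 tested miRNAs, among them miR-125b-5p, miR-126, miR-195, miR-497, miR-34a, let-7e and miR-99a, while the colon and the cecum had the lowest mean for 0. These ranks were taken with the main scaling only, and some of the rectum means, such as that of miR-99a, are at the floor. The rectum was among the 5 lowest organs for 33 tested miRNAs, against 6 for the cecum and 0 for the colon.

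The remaining lists held few tested members. Of the squamous list 2 of 5 tested members, miR-31 and miR-31*, were higher in the rectum than in each other organ, against 14.5% and 4.65% of all tested miRNAs, and miR-31* was detected on all 3 arrays in the rectum alone. Of the smooth muscle list the 2 tested members of 6 and of the endothelial list both members were lower in the rectum than in each other organ, as were 44.2% and 39% of all tested miRNAs. However, miR-145 of the former and miR-126* of the latter, detected on 0 and 1 of 3 rectum arrays, were tested only through the organs where they are high. The neuronal list had 1 tested member of 12, miR-128, lower in both pairs with a sign that turned with the scaling, and the myelin list 2 of 5, of which 1, miR-338, was lower and was tested only through the other organs. Of the miR-34 and miR-449 family only miR-34a was tested. Of the 73 miRNAs of the imprinted Dlk1-Dio3 cluster 68 were detected on no array, and the 2 tested ones were lower than in the cecum, with no call under all 6 scalings. None of 7 pancreatic acinar and 2 liver miRNAs was detected on any array.

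The position-related miRNAs of the HOX clusters did not all move together: of 6 tested members 3 were lower in the rectum than in the cecum and 3 than in the colon, against 44.2% and 39% of all tested miRNAs, with miR-10b alone holding under all 6 scalings. miR-10b, from the HoxD cluster, was 897, 882 and 803 in the cecum, 1396, 1450.3 and 1713 in the colon and 102, 66.8 and 72.5 in the rectum. Its difference was -4.26 (SE 0.22, adjusted p = 2.9e-06) for rectum minus colon, the largest of that pair, and -3.44 (adjusted p = 1.01e-05) for rectum minus cecum, while the colon lay above the cecum in all 3 rats without passing the test (0.82, adjusted p = 0.0932). miR-10a-5p, from the HoxB cluster, was 1087, 2576 and 3139 in the cecum, 3000.2, 3021 and 3391 in the colon and 1282, 731 and 876 in the rectum. Its differences of -1.14 and -1.74 were called with the main scaling and not under all 6, and none of the 6 turned their sign. In rat 4 the rectum lay above the cecum, and without the cecum array of rat 4 the rectum minus cecum difference was -1.70 (adjusted p = 0.000708). In the small intestine miR-10a-5p rose from a mean of 399.7 in the duodenum over 600.0 in the jejunum to 2106 in the ileum, and miR-10b from 52.8 over 116 to 238.

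miR-196b, from the HoxA cluster, was the single miRNA called lower in the colon than in the cecum. It was 403, 981 and 1106 in the cecum, 263, 212 and 140.1 in the colon and 279.9, 220.4 and 297 in the rectum, so that every cecum array lay above every array of the other organs, where 20.3% of all tested miRNAs did not overlap between colon and cecum. Its colon minus cecum difference was -1.94 (SE 0.40, adjusted p = 0.0431), and the cecum had the highest mean of all 55 organs, at 830.4. Without the cecum array of rat 4 that difference was -2.52 (adjusted p = 0.00275). In duodenum and jejunum miR-196b was at the floor, and in the ileum its mean was 37.3. The colon call was not made under all 6 scalings, though the difference stayed between -2.02 and -1.77. The related miR-196a and miR-196c, which differ from it at 1 base, were not called in any pair: miR-196a had means of 299, 193.9 and 189 and miR-196c of 348, 280.0 and 273. Both were near the floor in duodenum and jejunum but at 301 and 468 in the ileum, where miR-196b was low. miR-196c*, the other arm, was highest in the colon at 373, 207 and 164.5 and was called for rectum minus colon (-0.86), with a sign that turned under other scalings. Without the cecum array of rat 4, miR-196a and miR-196c were also called lower in the rectum than in the cecum (-1.17 and -0.82). That fit was run with the main scaling only, and with all 9 arrays the sign of both differences turned with the scaling.

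miR-139-5p differed most between colon and cecum. It was detected on all 3 colon arrays, at 52.4, 60.8 and 95.5, on no cecum array and on 1 rectum array, where values ran from 11.4 to 12.9. The colon was at least 5.42-fold higher than the cecum (adjusted p = 0.000181), the single colon minus cecum call that held under all 6 scalings, but it was tested only through the organ where it is high. The rectum was also called lower than the colon (adjusted p = 2.96e-05), with its signal above background on 1 array of 3. miR-375, of enteroendocrine and other secretory cells, was 151, 313 and 336 in the cecum, 752, 725 and 921 in the colon and 692, 404 and 555 in the rectum. It was higher in the colon than in the cecum by 1.66 (SE 0.32, adjusted p = 0.0431) and higher in the rectum than in the cecum by 1.10 (adjusted p = 0.0187), or 0.66 (adjusted p = 0.0429) without the cecum array of rat 4. Its colon minus cecum difference without that array was 1.22 (adjusted p = 0.042). miR-221 was 58.5, 28.0 and 21.4 in the cecum, 96.5, 83.1 and 58.2 in the colon and 88.0, 77.5 and 71.6 in the rectum (1.25 for colon minus cecum, adjusted p = 0.0431), and cecum and colon met at rat 4 of the one and rat 6 of the other.

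Values that did not pass the test between colon and cecum were closest for miR-7a (0.99, adjusted p = 0.0535) and miR-210 (1.22, adjusted p = 0.0535) on the higher side, and for miR-146b (-1.04, adjusted p = 0.0572), miR-191* (-0.70, adjusted p = 0.112), miR-150* (-0.67, adjusted p = 0.144) and miR-223 (-0.91, adjusted p = 0.16) on the lower side. miR-7a, an endocrine miRNA, was 164, 149.7 and 137 in the cecum, 316, 342 and 245 in the colon and 109, 71.0 and 89.7 in the rectum, and the 3 organs did not overlap. Of all tested miRNAs 64% did not overlap between rectum and cecum, 59.9% between rectum and colon and 20.3% between colon and cecum. miR-7a was lower in the rectum than in the colon by -1.75 (adjusted p = 0.000157), while the sign of its rectum minus cecum difference turned with the scaling. Before adjustment 28 of 172 miRNAs had p under 0.05 for colon minus cecum. Leaving out rat 5 or rat 6 removed the calls of miR-196b and miR-221, and leaving out rat 6 removed that of miR-375, with log2 differences of -1.80 and -1.41, 1.08 and 1.15, and 1.76, whereas miR-139-5p kept its call without each rat. Leaving out the cecum array of rat 4 left all 4 calls in place.

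**Figure D5:**
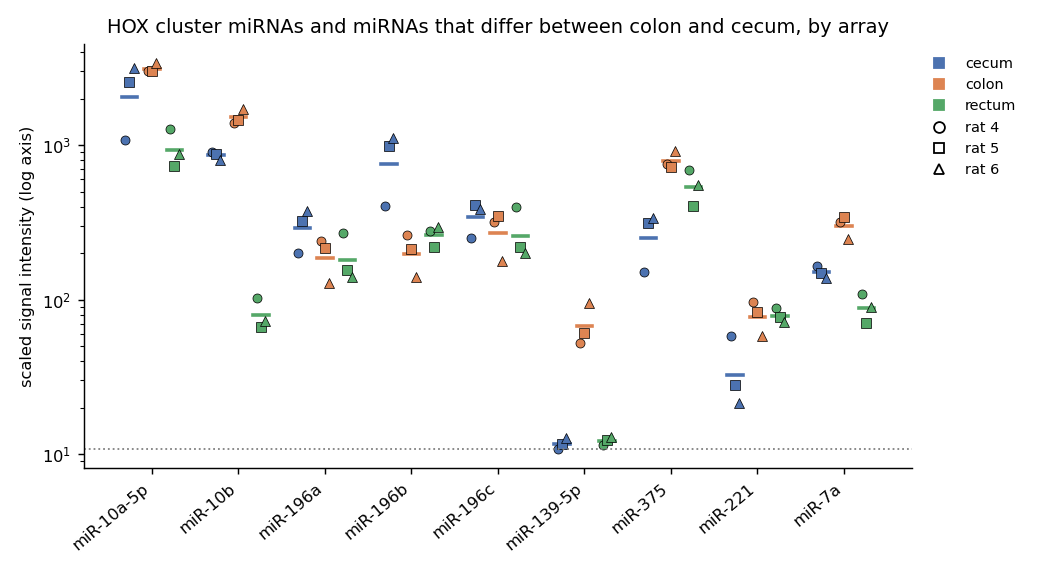
Scaled signal intensity (log axis) of HOX cluster miRNAs and of miRNAs that differed between colon and cecum on each array, with symbols as in the plot of epithelial miRNAs. miR-196b is highest in the cecum (403 to 1106), miR-139-5p rises above the floor in the colon (52.4 to 95.5), and miR-10b is lowest in the rectum (66.8 to 102).

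With the main scaling no cluster of neighboring miRNA genes held calls in both directions, although not all neighbors moved together. The clusters were counted with that scaling only. Tested miRNAs with RefSeq hairpins on the same strand and within 10000 bases of each other formed 24 clusters on GRCr8, with some miRNAs in several clusters because they have more than 1 gene copy. For rectum minus cecum, where 14.5% of all tested miRNAs were higher and 44.2% lower, 0 of the 24 clusters held calls in both directions, in 3 all members were higher and in 4 all were lower, and 3 held no call. For rectum minus colon 4.65% of all tested miRNAs were higher and 39% lower. There 0 clusters held calls in both directions, 5 were lower throughout and 12 held no call. For colon minus cecum, with 2.33% of all tested miRNAs called, 24 held no call. The clusters lower throughout in both pairs were those of miR-99b, let-7e and miR-125a (chr1:67350064-67350759), of miR-497 and miR-195 (chr10:55450171-55450581), of miR-143 and miR-145 on chromosome 18, and of miR-181a and miR-181b (chr3:43025563-43026753). In the last, the calls (-1.41 and -1.54 against the cecum) were not made under all 6 scalings. The clusters higher throughout against the cecum were those of miR-194 and miR-215 (chr13:99382716-99383086), of miR-29b and miR-29c (chr13:109098831-109099446) and of miR-182, miR-96 and miR-183 (chr4:59752246-59756153). Neighbors could also differ: next to miR-27b (-0.61) and miR-23b (-0.62), which were called lower than in the cecum with the main scaling but turned sign with others, miR-24 had a difference of 0.16 that was not called, and miR-24 has a second gene copy. Likewise, in the cluster of miR-99a and let-7c (chr11:29687392-29688205) miR-99a was called lower than in the cecum and let-7c was not called (-0.25). The rectum mean of miR-99a is at the floor, which limits the size of its difference. The difference of let-7c was 0.39, -0.57 and -0.57 in rats 4, 5 and 6. It ran from -0.33 to 0.84 over the 6 scalings.

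Slides did not coincide with organs, but rectum and cecum shared a slide in rat 6 only. The cecum array of rat 4 was on slide 5, apart from the colon and rectum of that rat. Its deviation from the other cecum arrays and its slide therefore cannot be told apart. The rectum array of rat 5 was on slide 13, apart from the cecum and colon of that rat. With slide as a fixed block in place of rat, 9 miRNAs in place of 25 were called higher in the rectum than in the cecum, and 64 in place of 97 by the F test. The arrays of a rat were scanned on 1 day, so that rat and scan day cannot be told apart and both are held by the block. The arrays of rat 6 shared slide 18, and on it 101 of the 101 calls for rectum minus cecum, 74 of the 75 for rectum minus colon and 4 of 4 for colon minus cecum had the sign of the fit. These signs come from the arrays that made the calls and are a description only. On slide 6, with colon and rectum of rat 4, this held for 75 of 75, and on slide 12, with cecum and colon of rat 5, for 4 of 4. Probes of different sequence for 1 miRNA had the sign of the fit in 97 of 100 called miRNAs for rectum minus cecum and in 73 of 74 for rectum minus colon, with exceptions in miR-182, miR-191* and miR-24-2*.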

How the data were processed

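The arrays of 9 samples were analyzed for 3 organs of 3 perfused rats, with all 180 arrays used for scaling. The arrays used for scaling included those of rats that were not perfused. The authors deposited scanner output (Agilent Feature Extraction 10.7.3, per the submitters' processing notes) with a background-subtracted signal intensity per spot, and a table of signal intensity per miRNA that they normalized to the 75th percentile. From the former, non-outlier spots were averaged per probe sequence and then per miRNA, scaled by the 75th percentile over 37 miRNAs detected on all arrays, floored at 10.8 and log2 transformed. Detection required the scanner's well-above-background mark on over 50% of the spots used. With 3 arrays per organ, the number of arrays limits the precision. Each pair of organs was tested with limma 3.58.1 in R 4.3.3 with rat as a fixed block and Benjamini-Hochberg adjustment over 172 miRNAs, and miR-215 by exact permutation in Python 3.11.15.

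The block is used because the labels give the same animal for the same number. Deviations from organ means correlated at 0.27 on average within a rat (-0.0447 to 0.64). The average of -0.13 between rats is largely tied to that value, since deviations from an organ mean cancel out over the rats, and adds no separate information. Named were, per pair, the 10 largest called differences in each direction with 1 sign in 3 rats, called members of 23 lists, HOX cluster miRNAs and the 5 brightest. Also named were the miRNAs with the lowest p for colon minus cecum in each direction, and all entries of miR-192, miR-194 and miR-215. These lists, and the organs, were chosen with earlier results of these data known. RefSeq names matched 173 array names exactly. In data simulated on rectum minus cecum with 20 of 172 miRNAs changed, 0.3% were recovered at a log2 change of 0.5, 56.8% at 1 and 93.8% at 2. Alternatives were other scalings, floors, filters, background corrections and blocks, and left-out animals. Normexp background correction was run on median spot signals, so that background correction and spot signal changed together.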

Additional observations from a re-analysis of the deposited data

How the results depend on the processing

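The counts of calls moved with the scaling between arrays, the floor, the filter on dim miRNAs and the organs in the fit. No scaling between arrays and leaving out the cecum array of rat 4 were alternatives chosen after seeing the data. For colon minus cecum the 3 higher and 1 lower calls became 7 and 2 after quantile normalization, 5 higher with the percentile over miRNAs detected on all 9 arrays, 0 lower with the percentile over all miRNAs, 7 higher in the authors' table, and 1 and 0 without scaling. They became 0 and 0 with the floor raised 4 times and with no filter on dim miRNAs, 6 and 2 over miRNAs detected on all 9 arrays, 5 higher with medians over spots, 5 and 2 with slide as a random block, 6 and 2 with 6 intestinal organs fitted together, 18 and 12 with 55 organs, 6 and 2 with an intensity trend and robust prior, and 10 and 6 with the adjustment over the 3 pairs. Leaving out each rat gave 1 to 3 higher and 0 to 2 lower.

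For rectum minus cecum the 25 higher and 76 lower calls became 86 and 38 with the percentile over all miRNAs, 55 and 48 with that over miRNAs detected on all 9 arrays, 64 and 46 after quantile normalization, 87 and 38 in the authors' table, 62 and 38 without scaling, 10 and 45 with the raised floor and 3 and 44 with no filter. Slide as a fixed block in place of rat gave 9 higher. Leaving out each rat gave 11 to 21 higher and 55 to 83 lower, and leaving out the cecum array of rat 4 gave 19 and 80, of which 18 and 72 were shared with the full fit. For rectum minus colon the 8 higher and 67 lower became 81 and 42, 46 higher, 60 higher, 82 and 42, and 54 and 41 in the same order of scalings, 3 and 35 with the raised floor and 0 and 35 with no filter. Other counts there were 102 lower after normexp background correction of median spot signals. Higher calls were 5 with medians over spots, 2 over miRNAs detected on all 9 arrays and 13 with slide as a fixed block. They were 19 with 55 organs and 20 without the cecum array of rat 4. Leaving out each rat gave 3 to 14 higher there, against 48 to 70 lower. The 97 miRNAs of the F test became 45 with the raised floor, 38 with no filter, 64 with slide as a fixed block and 57 to 105 without each rat. Apart from the scalings and filters, the cause of these moves was not tested.

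Without the replicate block for rat, 4 higher and 1 lower calls were made for colon minus cecum, 23 and 74 for rectum minus cecum, 6 and 69 for rectum minus colon and 89 by the F test, so the block moved no count by over 1.5 times.

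Of 115 called differences of named miRNAs, 38 kept sign and call under every alternative and 24 changed sign under at least 1. For rectum minus cecum the percentile over all miRNAs gave let-7d 0.49, let-7i 0.0464, miR-128 0.38, miR-191* 0.21, miR-20a 0.16, miR-20b-5p 0.22, miR-25 0.49, miR-409-3p 0.20 and miR-7a 0.33. The authors' table gave let-7d 0.41, miR-128 0.30, miR-191* 0.0724, miR-20a 0.0821, miR-20b-5p 0.14, miR-25 0.41, miR-409-3p 0.12 and miR-7a 0.25. No scaling gave let-7d 0.28, miR-128 0.17, miR-191* 0.00248, miR-20b-5p 0.0141, miR-25 0.28 and miR-7a 0.12. Quantile normalization gave miR-128 0.31, miR-191* 0.00324, miR-20b-5p 0.23, miR-25 0.38, miR-409-3p 0.19 and miR-7a 0.0821. Normexp on median spot signals gave miR-182 -0.31, miR-200a* -0.49, miR-210 -0.22, miR-24-2* -0.38, miR-29c* -0.41 and miR-31* -0.18. For rectum minus colon the percentile over all miRNAs gave let-7a 0.27, let-7d 0.21, miR-128 0.20, miR-196c* 0.0709 and miR-409-3p 0.16. The authors' table gave let-7a 0.25, let-7d 0.19, miR-128 0.18, miR-196c* 0.0519 and miR-409-3p 0.14. No scaling gave let-7a 0.17, let-7d 0.11, miR-128 0.10 and miR-409-3p 0.0644. Quantile normalization gave miR-128 0.23, miR-196c* 0.0538 and miR-409-3p 0.23, and normexp gave miR-24-2* -0.28, miR-31* -0.16, miR-33 -0.0115 and miR-451 -0.36. For miR-31*, miR-24-2* and miR-182, which were not detected on most cecum and colon arrays, the low signal over background limits the size of any difference.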
